A study of Homo sapiens with 105 samples.

Results

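The PDGF, FGF and KIT ligand genes, 4 receptors and 6 ligands, were followed through the RNA sequencing results of human granulosa cells that carry wild-type or mutant FOXL2. They are the receptors PDGFRA, PDGFRB, FGFR1 and FGFR2 and the ligands PDGFA, PDGFB, PDGFC, PDGFD, FGF2 and KITLG. They were taken by gene symbol, 10 of the 26330 symbols in each of the 5 tables that the authors deposited, and all 10 were found in every table. FOXL2 is a forkhead transcription factor of granulosa cells, the cells that surround the oocyte, and C134W is the missense change carried by most adult granulosa cell tumors. HGrC1, a human granulosa cell line, had received 1 of 3 constructs: no FOXL2 (empty vector, EV), normal FOXL2 (wild type, WT) or the mutant (C134W). Each construct was sampled in 2 states, stimulated with TGF-beta (written TGF, as in the sample titles) or not, which makes 6 groups of 3 libraries. KGN, a granulosa tumor line heterozygous for C134W, was sampled with TGF (5 libraries in the labels) and without (4). All cells grew in Ham medium with serum. Which vector and promoter were used, and the dose and time of TGF, is not given in the sources used here. KGN has no group without the mutation, so its table addresses TGF alone.

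PDGF and FGF receptors and KIT are receptor tyrosine kinases: a ligand brings receptor chains together, which phosphorylate each other and recruit adaptors that start the RAS, ERK, PI3K and phospholipase C pathways. PDGF-A and PDGF-B act as secreted dimers, PDGF-C and PDGF-D are secreted in a latent form and are cut by proteases such as the plasminogen activators, and FGF2 needs heparan sulfate chains to bind FGFR1 well. In the ovary, KIT ligand from granulosa cells acts on KIT of the oocyte and of theca cells, PDGF receptors are typical of theca and stromal cells, and FGF2 is a mitogen of cultured granulosa cells.

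The tables hold results per gene and no values per library, so group levels were worked out from the mean and the fold change of each table and are given as CPM, normalized reads scaled to a group total of 1000000. These levels have no error of their own, and they were read across groups for 1 gene at a time, never between genes. Every fold change is on the log2 scale with the standard error that the authors deposited, positive where the first-named group is higher, and "passed" means an adjusted p under 0.05 in the authors' DESeq2 Wald test. Estimated depth was 5490000 to 19600000 reads per HGrC1 library and 3590000 to 16500000 per KGN library, and the KGN table behaved as 11 libraries (5 with TGF, 6 without) where the labels list 9. Nothing in the labels says whether replicates were separate cultures or transductions, so the errors measure the spread between these libraries, which may be technical. FOXL2 itself was 6.16 ± 0.24 and 6.27 ± 0.20 higher in C134W than in EV with and without TGF in the authors' deposited tables, and -0.27 ± 0.11 and -0.13 ± 0.06 against WT. Granulosa markers, which include FOXL2, were present at 166 to 420 CPM in sum, with FSHR near 0 in every table and NR5A1 near 0 in HGrC1. In HGrC1 this sum is partly set by the construct, as FOXL2 alone gave 82.5 to 147 CPM in WT and C134W. Theca and stroma markers summed to 5198 to 18345, most of it collagen reads. Endothelial markers summed to 0.854 to 6.19 and immune markers to 2.78 to 20.3, with EMCN, CD3E and AIF1 at or near 0 in every table.

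Of the 43 member and table pairs with an adjusted p, 29 passed. With TGF, 7 of the 9 members with an adjusted p passed between C134W and WT, 3 higher and 4 lower, where 34.6% of all 14475 genes tested passed, 17.3% higher and 17.4% lower. Without TGF, 3 of 8 passed against WT, 2 higher and 1 lower, beside 22.4% of 12463 genes, 10.9% higher and 11.5% lower. Against EV, 8 of 9 passed with TGF, 5 higher and 3 lower, beside 42.7% of 15477 genes, 22.5% higher and 20.2% lower. Without TGF, 4 of 8 passed against EV, 3 higher and 1 lower, beside 25.7% of 13306 genes, 13.7% higher and 12% lower. In KGN, 7 of 9 passed between cells with and without TGF, 2 higher and 5 lower, beside 39.8% of 15719 genes, 19.8% higher and 20% lower. The members' medians in this order were -0.13, 0.01, 0.59, 0.23 and -0.31, and the medians of all genes tested lay between -0.02 and 0.00. FGFR1 passed in all 5 tables, and PDGFC, FGF2 and KITLG passed in 4. Against a null widened to the observed spread of the Wald statistics, 3 members still passed against WT with TGF and 3 against EV with TGF, in each case PDGFRB, FGF2 and FGFR1, and 2 in KGN, FGF2 and PDGFC. That null also ended the call of PDGFD against WT and of FGF2 against EV without TGF. The WT and EV tables of a state use the same C134W libraries, so their values stand side by side below and are not independent.

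**Figure D1:**
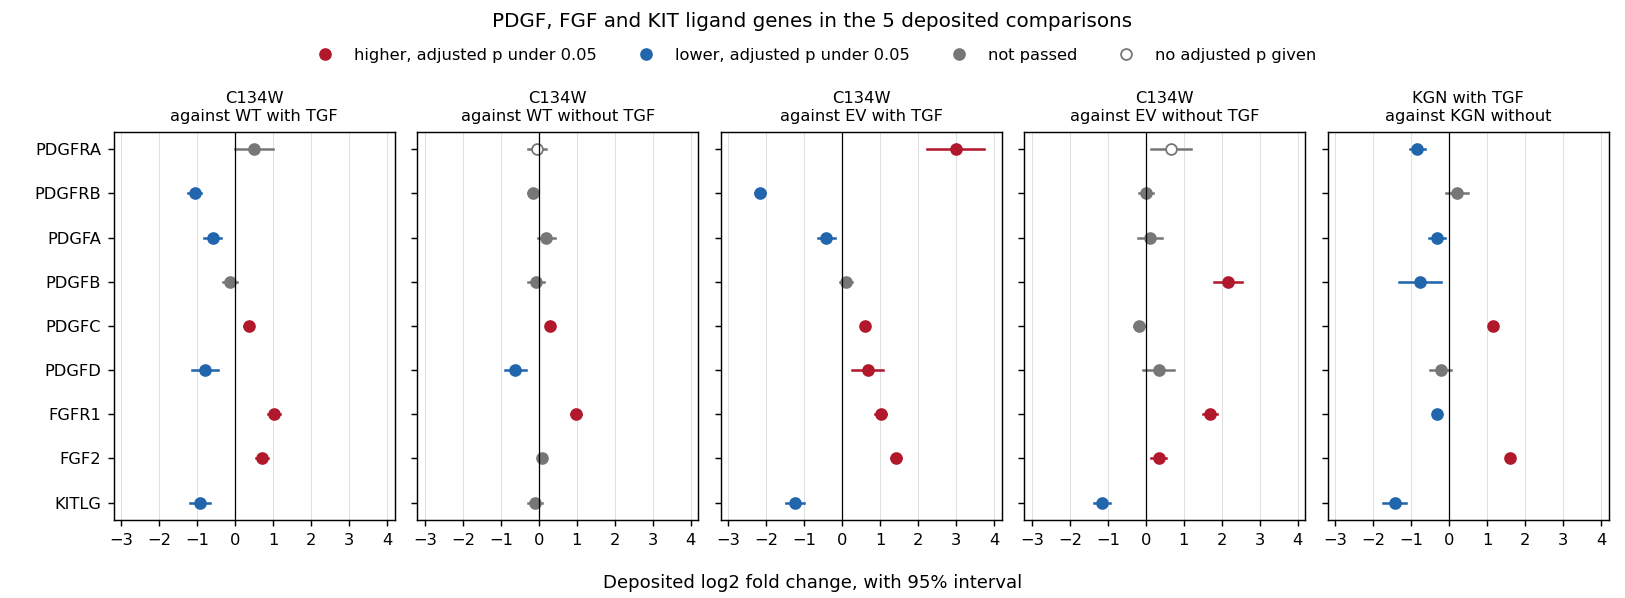
Deposited log2 fold change (x axis) of 9 members (y axis) in the 5 comparisons, with 95% intervals from the deposited standard errors. Colour marks genes with an adjusted p under 0.05, filled grey points did not pass and open points had no adjusted p. FGFR1 lies near 1 or above in all 4 HGrC1 panels, and PDGFRB lies far left of 0 only in the HGrC1 panels with TGF.

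PDGFRB (chr5:150113839-150155845, GRCh38.p14), the receptor for PDGF-B and PDGF-D, was lower in C134W than in both controls when TGF was present, and did not pass against either when it was absent. Without TGF its level was 61.1 CPM in EV, 65.9 in WT and 60.1 in C134W. With TGF it stood at 201 in EV, 88.9 in WT and 43.7 in C134W. The 3 groups thus lay close together without TGF, and with TGF they were spread in the order EV, WT, C134W. In the authors' deposited table of C134W against EV with TGF the difference was -2.16 ± 0.07 (adjusted p = 3.63e-203), 4.48-fold lower in C134W. Against WT with TGF it was -1.07 ± 0.09 in the authors' deposited table (adjusted p = 7.28e-30), 2.10-fold lower. Without TGF the authors' deposited tables gave -0.15 ± 0.07 against WT, with a 95% interval of -0.29 to -0.02 (adjusted p = 0.0912), and 0.00 ± 0.10 against EV, with an interval of -0.19 to 0.20 (adjusted p = 0.988). These are bulk libraries, in which fewer cells that express a gene and less RNA per cell cannot be told apart. In KGN, PDGFRB was at 21.0 without and 23.4 with TGF, below every HGrC1 group, and the authors' deposited table gave 0.21 ± 0.14 (adjusted p = 0.264). Stromal markers that often accompany this receptor also differed from EV with TGF: 6 of 11 theca and stroma markers were lower and 1 higher. LUM and DCN, small leucine-rich proteoglycans, were -2.93 ± 0.08 and -2.88 ± 0.24 there in the authors' deposited table. Both were also lower than in EV without TGF, at -2.14 ± 0.08 and -2.43 ± 0.20 in the authors' deposited table, where PDGFRB was at 0.00 ± 0.10. NR2F2 was higher than in EV, 0.54 ± 0.06 with and 0.53 ± 0.06 without TGF, in the authors' deposited tables. COL1A1 was also higher than in EV without TGF, at 0.92 ± 0.09 in the authors' deposited table. Against EV without TGF 2 of 9 of these markers were lower and 3 higher. Against WT 3 of 10 were higher and 0 lower with TGF, and 5 of 8 were higher and 0 lower without. Of all genes tested, 20.2% were lower and 22.5% higher against EV with TGF, and 12% lower and 13.7% higher without. Against WT 17.3% of all genes were higher and 17.4% lower with TGF, and 10.9% higher and 11.5% lower without. The part of these markers in the PDGFRB result was not tested.

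PDGFRA (chr4:54229293-54298245), the receptor for PDGF-A and PDGF-C, was abundant in KGN and scarce in HGrC1. It stood at 285 CPM in KGN without TGF and 151 with TGF, and at 0.137 to 3.63 in the HGrC1 groups, so the lower KGN level was 41.7 times the highest of HGrC1. The tables were normalized separately, and the lines were not tested against each other. Within KGN it was lower with TGF than without, at -0.84 ± 0.10 in the authors' deposited table (adjusted p = 2.25e-16), 1.80-fold lower. Among HGrC1 groups with TGF it was at 0.234 in EV, 2.18 in WT and 3.63 in C134W, and without TGF at 0.137, 0.806 and 0.680. It was thus low in all 6 groups, lowest in EV and highest in C134W with TGF. The EV levels rest on 2.72 worked-out normalized reads per library with TGF and 1.31 without. Against EV with TGF the authors' deposited table gave 2.98 ± 0.39 (adjusted p = 1.56e-13) at a mean of 22.2 normalized reads per library. A prior pulls the deposited fold changes toward 0, and it was removed for the levels. Without that prior PDGFRA stood at 3.94 ± 0.51 against EV with TGF. Against WT with TGF it did not pass, at 0.50 ± 0.26 in the authors' deposited table, with a 95% interval of -0.01 to 1.00 (adjusted p = 0.124). Without TGF it had means of 7.39 and 3.84 normalized reads and no adjusted p in the authors' deposited tables against WT and EV.

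The 250 bases before the annotated start of PDGFRB, KITLG and PDGFRA are shown because PDGFRB and KITLG had the lowest fold changes of the members against WT with TGF and PDGFRA had the highest against EV with TGF. They come from RefSeq (GRCh38.p14), 5′ to 3′ on the gene's strand. Capitals mark every match to 4 motifs: the SMAD half-site CAGAC, the AP-1 site TGANTCA and the forkhead core GTAAACA on both strands, and TATAAA on the gene's strand. None of the matches overlap.
PDGFRB, chr5:150155846-150156095, minus strand: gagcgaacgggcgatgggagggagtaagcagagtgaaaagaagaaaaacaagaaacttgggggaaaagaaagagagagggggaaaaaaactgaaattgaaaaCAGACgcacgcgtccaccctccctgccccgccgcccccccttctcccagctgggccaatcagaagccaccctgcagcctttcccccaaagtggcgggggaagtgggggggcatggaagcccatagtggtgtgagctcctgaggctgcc
KITLG, chr12:88580472-88580721, minus strand: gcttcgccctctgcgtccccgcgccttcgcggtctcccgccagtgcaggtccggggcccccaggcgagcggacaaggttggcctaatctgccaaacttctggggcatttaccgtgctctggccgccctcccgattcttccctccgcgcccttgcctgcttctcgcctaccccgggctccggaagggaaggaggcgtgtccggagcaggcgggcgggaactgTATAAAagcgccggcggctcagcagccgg
PDGFRA, chr4:54229043-54229292, plus strand: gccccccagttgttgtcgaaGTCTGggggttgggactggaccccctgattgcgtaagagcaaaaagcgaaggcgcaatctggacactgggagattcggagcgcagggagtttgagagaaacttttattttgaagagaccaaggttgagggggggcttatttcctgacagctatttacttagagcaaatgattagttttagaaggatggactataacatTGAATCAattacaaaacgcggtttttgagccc
The PDGFRB window has 1 SMAD half-site, from -148 to -144, a motif that 38.0% of 35116 such windows hold. The KITLG window has a TATA box from -29 to -24, as do 6.80% of windows. The PDGFRA window has a SMAD half-site on the other strand, from -230 to -226, and an AP-1 site from -32 to -26, which 6.57% of windows hold. The forkhead core, held by 2.98% of windows, was in none of the 3. Their GC content was 58.4%, 69.2% and 46.8%, beside a median of 58% over all windows. A match is a string of letters and says nothing of binding. Of the 10 members, 7 had a window in the RefSeq table used, and PDGFB, PDGFC and FGFR1 had none.

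FGFR1, the main FGF2 receptor, was about as much higher in C134W than in WT with TGF as without. Its level was 106 CPM in C134W, 50.5 in WT and 32.3 in EV without TGF. With TGF it was 115 in C134W, 53.0 in WT and 57.6 in EV. Both C134W groups were therefore above all 4 control groups. In the authors' deposited tables the difference from WT was 1.02 ± 0.08 with TGF (adjusted p = 1.04e-34) and 0.99 ± 0.07 without (adjusted p = 7.79e-49). Against EV the authors' deposited tables gave 1.01 ± 0.07 with TGF (adjusted p = 1.28e-40) and 1.70 ± 0.09 without (adjusted p = 1.61e-70). KGN had more than any HGrC1 group, 299 without and 231 with TGF, and it was lower with TGF, at -0.31 ± 0.05 in the authors' deposited table (adjusted p = 8.89e-08).

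FGFR2, another FGF receptor, was all but absent. No read fell on it in the 12 WT and C134W libraries of the authors' deposited tables against WT, which by the 3-count limit allows up to 0.0233 CPM over these libraries together, for counting error only. Its means in the authors' deposited tables against EV correspond to 1 read, in an EV library with TGF, and to 2 reads, in 2 EV libraries without TGF. In KGN its mean was 0.624 normalized reads per library in the authors' deposited table, with no adjusted p. FGFR2 was thus near 0 in every group, and no difference between groups could be detected at such a level.

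FGF2 (chr4:122826682-122898236), the mitogenic ligand of FGFR1, was higher in C134W than in both controls with TGF, and higher than in EV without TGF. Without TGF its level was 95.1 CPM in EV, 109 in WT and 118 in C134W, and with TGF it was 72.3, 110 and 191. The level with TGF was below that without in EV, nearly equal to it in WT and above it in C134W. In the authors' deposited tables with TGF, FGF2 was 1.41 ± 0.07 higher than in EV (adjusted p = 4.72e-94) and 0.71 ± 0.07 higher than in WT (adjusted p = 1.79e-19). Without TGF it was 0.34 ± 0.10 higher than in EV (adjusted p = 0.00303) and did not pass against WT, at 0.08 ± 0.06 with a 95% interval of -0.03 to 0.20, in the authors' deposited tables (adjusted p = 0.358). In KGN it rose with TGF from 175 to 510 CPM, 1.59 ± 0.05 in the authors' deposited table (adjusted p = 1.35e-226), 3.01-fold higher. The gene overlaps NUDT6, annotated from 122892577 to 122922968 on the same chromosome, over 5660 bases at its far end. The library kit (TruSeq v2) does not mark strand, so reads there cannot be assigned. NUDT6 stood at 0.75 ± 0.12 and 0.09 ± 0.11 against WT with and without TGF, 1.18 ± 0.11 and 0.34 ± 0.14 against EV, and 1.42 ± 0.08 in KGN in the authors' deposited tables. These values lay close to those of FGF2 in all 5 comparisons. The share of either gene's reads that comes from the overlap was not tested.

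**Figure D2:**
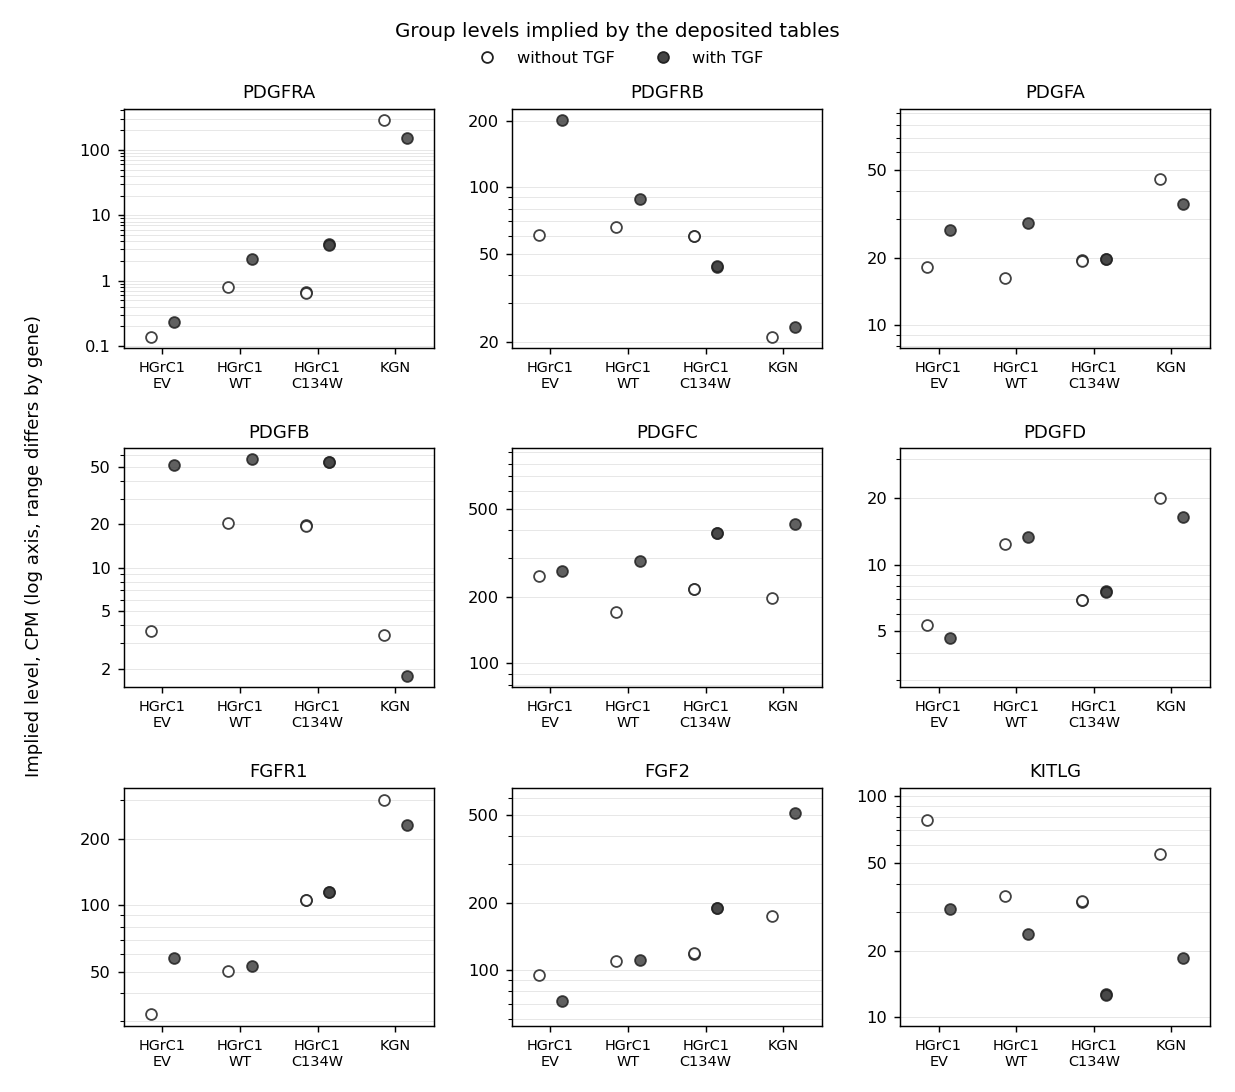
Level of 9 members (CPM, log axis with its own range per gene) in the 3 HGrC1 groups and KGN, without TGF (open) and with TGF (filled), worked out from the deposited means and fold changes. C134W has a point from each of its 2 tables, which lie on each other. PDGFRB fans out only among the filled HGrC1 points, and the PDGFB levels of the 3 HGrC1 groups with TGF lie between 51.4 and 56.3.

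PDGFC (chr4:156760454-156971799) and PDGFD (chr11:103907189-104164147), the latent PDGF ligands, had different patterns. PDGFC was higher in C134W than in WT in both states, 0.35 ± 0.06 with TGF (adjusted p = 3.58e-08) and 0.31 ± 0.04 without (adjusted p = 2.57e-10) in the authors' deposited tables. Its level was 390 against 290 CPM with TGF and 217 against 171 without. The EV level was 261 with and 250 without TGF, below that of C134W with TGF and above it without. The authors' deposited tables gave 0.59 ± 0.05 against EV with TGF (adjusted p = 4.76e-26) and -0.17 ± 0.07 without, with a 95% interval of -0.31 to -0.02 (adjusted p = 0.0776). In KGN PDGFC rose with TGF from 198 to 427, 1.16 ± 0.05 in the authors' deposited table (adjusted p = 3.63e-123).

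PDGFD was lower in C134W than in WT in both states and higher than in EV with TGF. Its level with TGF was 4.66 CPM in EV, 7.58 in C134W and 13.4 in WT, and without TGF it was 5.36, 6.95 and 12.4 in that order. C134W thus lay between the 2 controls in both states. In the authors' deposited tables it was -0.80 ± 0.17 against WT with TGF (adjusted p = 3.02e-05) and -0.62 ± 0.14 without (adjusted p = 0.000125). Against EV it was 0.67 ± 0.21 with TGF (adjusted p = 0.0048) and did not pass without, at 0.34 ± 0.21 with an interval of -0.07 to 0.75, in the authors' deposited tables (adjusted p = 0.243). In KGN PDGFD did not pass, at -0.22 ± 0.14 with an interval of -0.49 to 0.05 in the authors' deposited table (adjusted p = 0.215), between levels of 20.1 without and 16.5 with TGF.

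PDGFB (chr22:39223359-39244982), the ligand of both PDGF receptors, differed from EV only where TGF was absent. Without TGF its level was 3.66 CPM in EV, 20.3 in WT and 19.6 in C134W. With TGF all 3 groups lay close together, at 51.4, 56.3 and 53.9. The authors' deposited table of C134W against EV without TGF gave 2.17 ± 0.19 (adjusted p = 2.10e-29), and that with TGF gave 0.09 ± 0.09, with a 95% interval of -0.07 to 0.26 (adjusted p = 0.401). Against WT it did not pass in either state, at -0.13 ± 0.10 with TGF, interval -0.32 to 0.06 (adjusted p = 0.317), and -0.07 ± 0.11 without, interval -0.28 to 0.15 (adjusted p = 0.731), in the authors' deposited tables. Between states, the EV level with TGF was 14.0 times that without, and the ratio was 2.78 in WT and 2.76 in C134W. These ratios join separately normalized tables and were not tested. KGN had little PDGFB, 3.44 without and 1.77 with TGF, where the lowest HGrC1 level was 3.66, and it fell by 0.77 ± 0.28 in the authors' deposited table (adjusted p = 0.0187) at a mean of 22.7 normalized reads.

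PDGFA (chr7:497258-520700), a ligand of PDGFRA, was lower in C134W with TGF and did not pass without. With TGF it was at 26.8 CPM in EV, 28.8 in WT and 19.7 in C134W, and without TGF at 18.3, 16.2 and 19.6. The C134W level was nearly the same in both states, while those of EV and WT were higher with TGF than without. The authors' deposited tables gave -0.60 ± 0.12 against WT (adjusted p = 3.64e-06) and -0.42 ± 0.11 against EV with TGF (adjusted p = 0.000904). Without TGF they were 0.20 ± 0.12 against WT, interval -0.03 to 0.43 (adjusted p = 0.24), and 0.11 ± 0.16 against EV, interval -0.20 to 0.42 (adjusted p = 0.684), in the authors' deposited tables. In KGN it was lower with TGF, at -0.32 ± 0.10 in the authors' deposited table (adjusted p = 0.00688), with levels of 45.6 without and 34.9 with TGF.

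KITLG (chr12:88492793-88580471), the ligand of KIT, was lower in C134W than in EV in both states, lower than in WT with TGF, and lower in KGN with TGF than without. Its level without TGF was 78.2 CPM in EV, 35.3 in WT and 33.3 in C134W. With TGF it was 31.0, 23.8 and 12.7. WT and C134W lay close together without TGF, and the level of every HGrC1 construct was lower with TGF than without. In the authors' deposited tables KITLG was -1.25 ± 0.13 against EV with TGF (adjusted p = 4.97e-22) and -1.16 ± 0.11 without (adjusted p = 2.01e-26). Against WT it was -0.92 ± 0.13 with TGF (adjusted p = 1.24e-10) and -0.10 ± 0.09 without, with an interval of -0.28 to 0.08 (adjusted p = 0.492), in the authors' deposited tables. KGN fell from 54.7 to 18.6 with TGF, -1.44 ± 0.16 in the authors' deposited table (adjusted p = 5.26e-19). Under the widened null KITLG still passed against EV without TGF, and no longer against WT or EV with TGF or in KGN. KIT, named here as its receptor and not by the rule for other genes, was scarce, at 0.11 to 3.08 CPM in every group.

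A direct table of WT against EV was not used here, and their levels are set side by side with no test. WT was above EV for PDGFB without TGF (20.3 against 3.66 CPM) and for PDGFD in both states (13.4 against 4.66 with TGF, 12.4 against 5.36 without). It was also above EV for PDGFRA, at few reads, in both states (2.18 against 0.234 with TGF, 0.806 against 0.137 without). The same held for FGFR1 without TGF (50.5 against 32.3) and FGF2 with TGF (110 against 72.3). WT was below EV for PDGFRB with TGF (88.9 against 201), and without TGF for KITLG (35.3 against 78.2) and PDGFC (171 against 250). PDGFA differed little between them, 28.8 against 26.8 with TGF and 16.2 against 18.3 without.

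Whether the C134W difference depended on TGF was tested by subtracting the fold change without TGF from that with TGF, gene by gene, in a two-sided z test with Benjamini-Hochberg adjustment over 17969 genes. The test uses the deposited standard errors, and the widened null applied above to the Wald statistics was not applied to it. Its 17969 genes are those with a p-value in both tables, where 12463 to 15477 had an adjusted p in the HGrC1 tables. They thus hold more genes at few reads, which can lower the shares of all genes given here. Against WT, 4 of 9 members passed, PDGFRB, PDGFA and KITLG downward and FGF2 upward, beside 8.95% of all genes, 4.26% upward and 4.69% downward. Against EV, 7 of 10 passed, 3 upward and 4 downward, beside 13.4% of all genes, 6.92% upward and 6.47% downward. PDGFRB had a difference of -0.91 ± 0.11 against WT (z test, adjusted p = 1.29e-13) and -2.17 ± 0.12 against EV (adjusted p = 7.09e-69). For FGF2 it was 0.62 ± 0.10 against WT (z test, adjusted p = 4.01e-09) and 1.07 ± 0.12 against EV (adjusted p = 1.66e-17). PDGFA gave -0.80 ± 0.17 against WT (z test, adjusted p = 5.88e-05) and -0.53 ± 0.19 against EV (adjusted p = 0.0492). The latter did not pass once the prior that pulls the deposited fold changes toward 0 was removed (-0.54 ± 0.21, adjusted p = 0.0647).

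KITLG and PDGFB passed this test against 1 of the 2 controls each. KITLG shifted by -0.82 ± 0.16 against WT (z test, adjusted p = 1.89e-05) and by -0.09 ± 0.16 against EV, where the 95% interval was -0.41 to 0.23 (adjusted p = 0.861). PDGFB shifted by -2.08 ± 0.21 against EV (z test, adjusted p = 6.27e-22) and by -0.06 ± 0.15 against WT, interval -0.35 to 0.22 (adjusted p = 0.92). Whether the shifts against WT and EV differ from each other was not tested. PDGFC shifted upward against EV by 0.76 ± 0.09 (z test, adjusted p = 4.75e-15) and stood at 0.04 ± 0.07 against WT, interval -0.10 to 0.19. FGFR1 shifted downward against EV by -0.69 ± 0.12 (z test, adjusted p = 2.44e-07) and stood at 0.03 ± 0.10 against WT, interval -0.17 to 0.24, so that a shift against WT of more than 0.24 upward or 0.17 downward lay outside it. PDGFRA shifted by 2.32 ± 0.47 against EV (z test, adjusted p = 2.04e-05), and did not pass without the prior (1.66 ± 1.07, adjusted p = 0.443). Its mean in the authors' deposited table without TGF was 3.84 normalized reads. PDGFD passed in neither, at -0.19 ± 0.22 against WT and 0.32 ± 0.29 against EV.

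**Figure D3:**
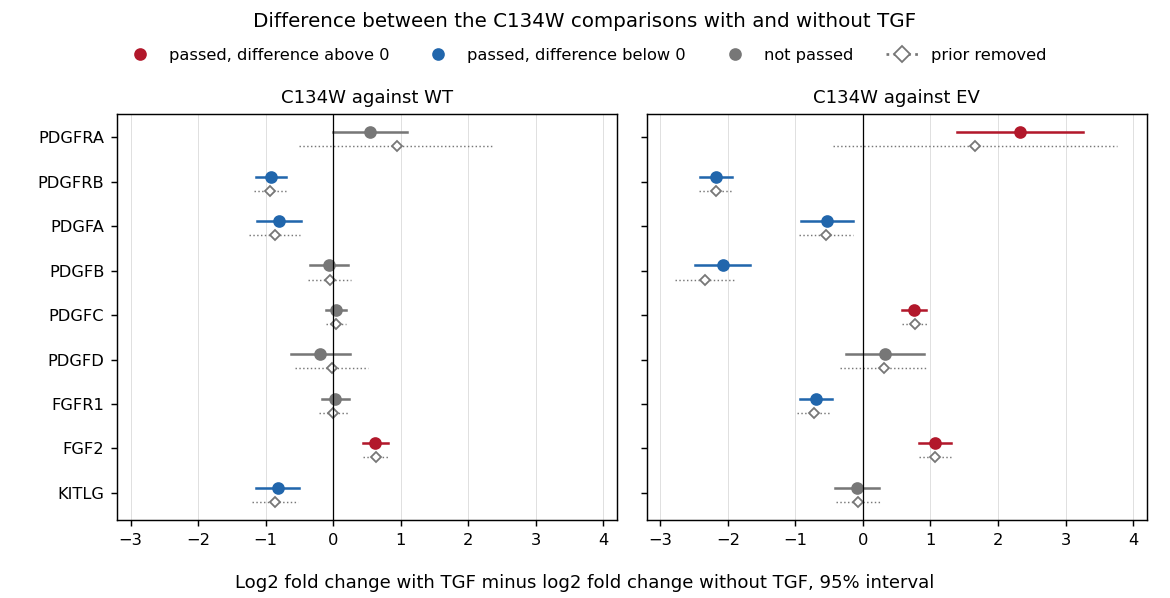
Log2 fold change with TGF minus that without (x axis) for 9 members, against WT (left) and EV (right), with 95% intervals of the z test. Diamonds and dotted lines repeat the value with the prior removed. FGFR1 lies near 0 on the left and below 0 on the right, and the dotted interval of PDGFRA reaches across 0 in both panels.

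The other genes of the pathway were taken from 6 lists, whose counts and medians are of the genes with an adjusted p. The medians of all genes tested lay between -0.02 and 0.00. The shares of all genes that passed, against which each list's counts are to be read, were 34.6% and 22.4% against WT with and without TGF, 42.7% and 25.7% against EV, and 39.8% in KGN. The list of negative feedback inhibitors of ERK signaling and ETS factors that follow it also held EGR1, FOSL1, MYC and CCND1, which are neither. Its genes were mostly higher in C134W than in EV. With TGF 15 of 17 were higher and 1 lower, and without TGF 15 of 17 were higher and 0 lower. Of all genes, 22.5% and 13.7% were higher. The medians were 1.24 and 0.73. ETV4, an ETS factor, was 3.08 ± 0.09 and 2.80 ± 0.14 higher than in EV with and without TGF in the authors' deposited tables, DUSP4, an ERK phosphatase, was 2.94 ± 0.08 with TGF, and DUSP6, another, was 2.19 ± 0.22 without. Against WT with TGF 9 of 17 were higher and 2 lower (median 0.34), with ETV1 at 1.47 ± 0.20, DUSP4 at 1.34 ± 0.07 and, on the other side, SPRED1 at -0.30 ± 0.08 in the authors' deposited table. Without TGF 4 were higher and 3 lower (median 0.05), among them EGR1 at 0.62 ± 0.14 and ETV5 at -0.40 ± 0.08 in the authors' deposited table. In KGN 5 were higher with TGF and 7 lower (median -0.17), with ETV4 at 1.05 ± 0.13 and SPRY1, a feedback inhibitor, at -2.10 ± 0.31 in the authors' deposited table.

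Among proteases that release or activate growth factors, the plasminogen activators PLAU and PLAT were higher in C134W than in both controls in both states, and higher in KGN with TGF. PLAT, which cuts latent PDGF-C, was 2.12 ± 0.07 and 1.34 ± 0.09 against EV with and without TGF, 1.10 ± 0.07 and 0.30 ± 0.06 against WT, and 3.12 ± 0.28 in KGN in the authors' deposited tables. PLAU, which cuts latent PDGF-D, was 3.87 ± 0.06, 2.56 ± 0.08, 1.81 ± 0.06, 0.52 ± 0.04 and 0.76 ± 0.10 in the same order in the authors' deposited tables. The PLAU gene overlaps the noncoding gene C10orf55, whose reads cannot be told from its own without strand. Of the list, 4 of 8 passed against WT with TGF (3 higher) and 3 of 5 without (2 higher), beside 34.6% and 22.4% of all genes. Against EV 5 of 9 passed with TGF (4 higher) and 4 of 5 without (3 higher), beside 42.7% and 25.7%, and in KGN 5 of 7 passed (4 higher), beside 39.8%. With 5 to 9 genes these are small counts. The medians in this order were 0.08, 0.15, 0.16, 0.89 and 0.46. FURIN, a proprotein convertase, was lower than in WT, -0.48 ± 0.08 and -0.20 ± 0.07 with and without TGF, in the authors' deposited tables. It was higher than in EV, 0.26 ± 0.07 with and 0.89 ± 0.11 without TGF, and 0.46 ± 0.04 in KGN with TGF, in the authors' deposited tables.

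Heparan sulfate proteoglycans, the coreceptors of FGF2, and their enzymes changed in both directions. Against WT with TGF 15 of 16 passed, 6 higher and 9 lower (median -0.25), beside 34.6% of all genes, and against EV with TGF 12 of 16 passed, 6 in each direction (median 0.11), beside 42.7%. SDC3, a syndecan, was 1.54 ± 0.12 against WT and 2.77 ± 0.14 against EV with TGF, and SDC1, another, was -0.50 ± 0.08 against WT and 3.16 ± 0.12 against EV, in the authors' deposited tables. SULF1, an extracellular sulfatase that trims heparan sulfate, was -0.99 ± 0.07 against WT and -2.23 ± 0.06 against EV with TGF, in the authors' deposited tables. Its paralog SULF2 was also lower than in EV, -2.48 ± 0.14 with and -0.82 ± 0.19 without TGF, but higher than in WT, 0.71 ± 0.22 with (adjusted p = 0.00544) and 0.60 ± 0.15 without (adjusted p = 0.000762), in the authors' deposited tables. Without TGF 7 of 14 passed against WT (2 higher, 5 lower, median 0.01) and 7 of 14 against EV (3 higher, 4 lower, median 0.01), beside 22.4% and 25.7% of all genes. SDC1 was lower than in WT there, -0.53 ± 0.07, and higher than in EV, 1.49 ± 0.12, in the authors' deposited tables. In KGN 11 of 16 passed, 4 higher and 7 lower (median -0.19), beside 39.8% of all genes, from HS6ST1, a sulfotransferase, at 1.63 ± 0.08 to SDC4 at -2.90 ± 0.08 in the authors' deposited table.

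Of the adaptors and effectors that bind activated receptors, 15 of 23 passed against WT with TGF (10 higher), beside 34.6% of all genes. Without TGF 2 of 23 passed against WT (1 higher), or 8.70%, below the 22.4% of all genes. Against EV 17 of 24 passed with TGF (13 higher) and 10 of 23 without (6 higher), beside 42.7% and 25.7%, and in KGN 17 of 24 passed (12 higher), beside 39.8%. The medians in this order were 0.07, 0.04, 0.21, 0.09 and 0.13. GAB2, a docking protein of these receptors, was 1.25 ± 0.11 against WT with TGF, 0.72 ± 0.10 against EV with TGF and 1.70 ± 0.08 in KGN in the authors' deposited tables. Without TGF GAB2 was 0.16 ± 0.11 against WT (adjusted p = 0.342) and lower than in EV, -0.40 ± 0.13 (adjusted p = 0.00865), in the authors' deposited tables. CBLB, a ubiquitin ligase that ends receptor signaling, was higher in all 5 comparisons: 0.51 ± 0.08 and 0.54 ± 0.07 against WT with and without TGF, 0.63 ± 0.08 and 0.58 ± 0.09 against EV, and 1.14 ± 0.10 in KGN in the authors' deposited tables. PIK3CB, a catalytic subunit of PI3K, was lower than in WT with TGF and lower than in EV in both states, at -0.34 ± 0.09, -0.64 ± 0.08 with and -0.47 ± 0.09 without TGF in the authors' deposited tables.

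Of 21 other FGF ligands, 4 to 8 had enough reads for an adjusted p, with medians of 0.23 and 0.02 against WT with and without TGF, -0.14 and -0.01 against EV, and 0.30 in KGN. Against WT 2 of 5 passed with TGF (1 higher) and 2 of 4 without (1 higher), beside 34.6% and 22.4% of all genes. Against EV 3 of 6 passed with TGF (1 higher) and 1 of 4 without, which was lower, beside 42.7% and 25.7%. In KGN 2 of 8 passed (2 higher), beside 39.8%. FGF18 was lower in C134W than in EV and higher than in WT: -2.38 ± 0.13 and -0.78 ± 0.12 against EV with and without TGF, and 0.57 ± 0.20 and 0.44 ± 0.09 against WT, in the authors' deposited tables. FGF5 was 1.89 ± 0.22 higher than in EV with TGF, and FGF1 was 1.11 ± 0.15 higher in KGN with TGF, in the authors' deposited tables. FGF1 was lower in C134W than in WT, -0.67 ± 0.23 with and -0.60 ± 0.15 without TGF, at means of 42.1 and 40.9 normalized reads, in the authors' deposited tables. Among other receptors and ligands of the 3 families, 4 of 10 passed against WT with TGF (1 higher) and 1 of 7 without, which was lower, beside 34.6% and 22.4% of all genes. Against EV 5 of 11 passed with TGF (1 higher) and 4 of 9 without (1 higher), beside 42.7% and 25.7%, and in KGN 5 of 9 passed (2 higher), beside 39.8%. Both shares with TGF in HGrC1, 40% and 45.5%, were near those of all genes. Their medians in the same order were 0.07, 0.04, -0.28, -0.20 and -0.20. FGFRL1, an FGF receptor that lacks the kinase domain, was 0.31 ± 0.08 against WT with TGF, 1.13 ± 0.09 and 0.92 ± 0.10 against EV with and without, and 0.20 ± 0.07 in KGN in the authors' deposited tables. FLT3, a relative of KIT, was -1.85 ± 0.13 and -1.45 ± 0.12 against EV with and without TGF, and FGFR4 was -0.59 ± 0.17 against WT with TGF, in the authors' deposited tables. FGFR3, named here outside the rule for other genes, was lower in C134W in all 4 HGrC1 comparisons, at means of 24.9 to 41.5 normalized reads. It was -0.68 ± 0.26 and -0.51 ± 0.15 against WT with and without TGF, and -0.71 ± 0.30 and -0.79 ± 0.25 against EV, in the authors' deposited tables. CSF1, the ligand of a further relative, was -1.82 ± 0.11 in KGN with TGF in the authors' deposited table.

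**Figure D4:**
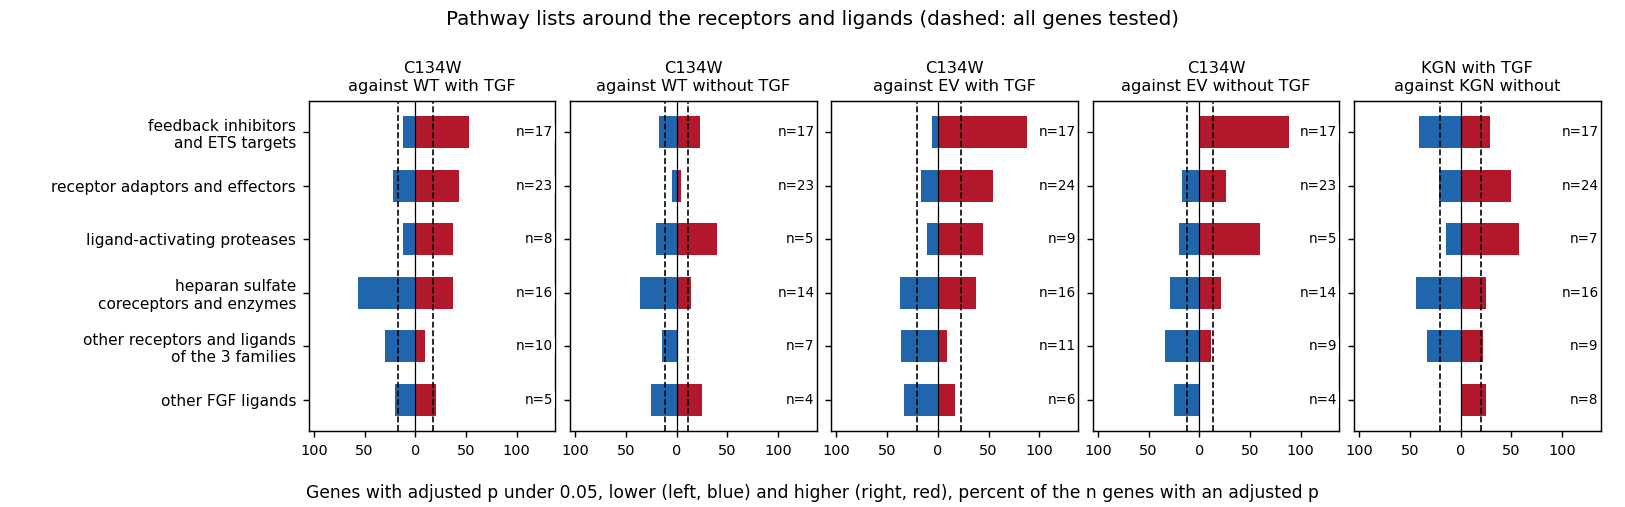
Share of each pathway list that passed (percent of the genes with an adjusted p, whose number stands at the right), lower to the left and higher to the right, in the 5 comparisons, with dashed lines for all genes tested. The bar of higher genes in the list labelled feedback inhibitors and ETS targets reaches 15 of 17 in both panels against EV.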

How the data were processed

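Groups were taken from the sample titles: 27 RNA samples in 8 groups among 105 samples. The other 78, from chromatin immunoprecipitation and inputs, were not analysed here. The submitters' processing notes name Bowtie2, DESeq2, HTSeq 0.6.1, Trimmomatic 0.36.0 and build hg38, with no roles. Settings for counting, and the annotation used, were not given in the sources used here. Per the labels' protocols, libraries were made with a TruSeq RNA kit, version 2.

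Each of the 5 tables has 7 columns per gene. The authors deposited the mean signal over libraries, in reads divided by size factors. They also deposited the log2 fold change with its standard error on the log2 scale, a Wald score, a p-value and an adjusted p-value (Benjamini-Hochberg), all used as given. The authors' deposited fold changes are moderated by a normal prior, which was inferred from each table's largest standard error and removed for the group levels and in 1 alternative. The CPM scale of the group levels shifts a table's fold changes by -0.07 to 0.06 on the log2 scale. C134W levels from its WT and EV tables agreed within a ratio of 0.990 to 1.006 for the members but PDGFRA (0.974 with TGF, 0.953 without) and FGFR2, which was not compared. Library numbers and depth were estimated from genes with a single read, at least 60 genes per value.

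Main calls are those of the authors' DESeq2 Wald test with a threshold of 0.05 on the adjusted p. The z test of differences with and without TGF uses tables that share no library. Named genes besides the members were, per pathway list and table, at most the 2 highest and 2 lowest fold changes of genes that passed with a mean of at least 50. The members, lists and tests were chosen with earlier results of these data known, and the level estimates, motifs and printed promoters after the tables were read. Alternatives were no filter on low means, a mean filter of 50, an adjusted p of 0.01, recentring, removing the prior, and an empirical null. Software: scipy 1.17.1, pandas 2.3.3, numpy 2.4.6 and matplotlib 3.10.9 were run under Python 3.11.15.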

Additional observations from a re-analysis of the deposited data

Results flagged for a closer look

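In all, 11 differences between the C134W comparisons with and without TGF passed the z test of the difference itself (adjusted p under 0.05 over 17969 genes), and each is given here as the log2 fold change with TGF minus that without. Against WT these were PDGFRB at -0.91 ± 0.11 (adjusted p = 1.29e-13), PDGFA at -0.80 ± 0.17 (adjusted p = 5.88e-05), KITLG at -0.82 ± 0.16 (adjusted p = 1.89e-05) and FGF2 at 0.62 ± 0.10 (adjusted p = 4.01e-09). Against EV the receptors were PDGFRB at -2.17 ± 0.12 (adjusted p = 7.09e-69), FGFR1 at -0.69 ± 0.12 (adjusted p = 2.44e-07) and PDGFRA at 2.32 ± 0.47 (adjusted p = 2.04e-05). The ligands against EV were PDGFB at -2.08 ± 0.21 (adjusted p = 6.27e-22), FGF2 at 1.07 ± 0.12 (adjusted p = 1.66e-17), PDGFC at 0.76 ± 0.09 (adjusted p = 4.75e-15) and PDGFA at -0.53 ± 0.19 (adjusted p = 0.0492). With the prior removed from the authors' fold changes, PDGFRA and PDGFA against EV no longer passed, at 1.66 ± 1.07 (adjusted p = 0.443) and -0.54 ± 0.21 (adjusted p = 0.0647). The mean of PDGFRA was 3.84 normalized reads in the authors' deposited table of C134W against EV without TGF. PDGFRB, PDGFA and FGF2 stand in both sets, which share the C134W libraries. None of the 11 was checked against an empirical null. For PDGFB against EV the shift lies in the table without TGF, where EV was at 3.66 and C134W at 19.4 CPM, and not in the table with TGF (51.4 and 54.2).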

How the results depend on the processing

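No paired analysis was possible because the deposited tables hold no values per library, and leaving out each replicate could not be run for the same reason. Under the empirical null, which widens the Wald statistic's standard normal to an SD of 2.90, 3.57 and 3.41, the count of members passed went from 7 to 3 against WT with TGF, from 8 to 3 against EV with TGF and from 7 to 2 in KGN. PDGFRB, FGF2 and FGFR1 were the 3 that passed in both HGrC1 tables, and FGF2 and PDGFC the 2 in KGN. The empirical null was not applied to the z test of differences with and without TGF, which uses the same deposited standard errors. In 30 other checks of the 7 counts the value stayed within 1.5 times. These include the empirical null without TGF, at an SD of 2.01 against WT and 2.09 against EV. There the count went from 3 to 2 against WT, losing PDGFD, and from 4 to 3 against EV, losing FGF2. Removing the prior took the count of differences against EV from 7 to 5. The difference of FGFR2 against EV, which rests on 3 reads in all, turned from -0.00 to 0.03 (0.0266) once the prior was removed, and neither passed. Of 140 checks of single members, 137 kept direction and side of the threshold, and the PDGFRA and PDGFA differences against EV lost their calls without the prior. Many of the 140 could not have changed a call. Removing the prior within a table rescaled the fold change and kept the deposited adjusted p. The mean filter left each difference as it was and changed only its adjusted p. The empirical null was not among the 140. Few reads limit PDGFRA in HGrC1, PDGFB in KGN and FGFR2 everywhere.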
